A study of Mus musculus with 10 samples.

Results

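The nuclear-encoded subunits of the respiratory chain and of ATP synthase were described in differentiating mouse cells. They were taken by symbol, as every name beginning with Ndufa, Ndufb, Ndufc, Ndufs or Ndufv and a digit, or with Uqcr or Atp5. Names of the form Cox5a, Cox6b1, Cox7c or Cox8a, with at most a single digit after the letter, were also taken. The rule did not take Cox4i1, Cox4i2 or Cox7a2l, which are counted below among other subunits and carriers. The counts and sums of complex IV leave these genes out. The rule found 77 of the 23337 genes in the count table. By textbook assignment 35 belong to complex I, 8 to complex III, 16 to complex IV (Ndufa4 among them) and 15 to complex V. The remaining 3, Atp5s, Atp5sl and Ndufa4l2, match the name rule but are not counted as subunits here.

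Respiratory complex I takes electrons from NADH, complex III passes them from ubiquinol to cytochrome c, and complex IV hands them to oxygen. All of these pump protons across the inner mitochondrial membrane, and complex V, the ATP synthase, makes ATP from the gradient. Most subunits are encoded in the nucleus and imported, and each complex joins catalytic core subunits with small accessory ones. Pluripotent cells are known for a strong reliance on glycolysis, and the balance between glycolysis and respiration shifts as they differentiate.

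RNA was sequenced from embryoid bodies, aggregates of differentiating embryonic stem cells, of an iHA-Etv2 line that makes an HA-tagged Etv2 when given doxycycline. Etv2 is an ETS transcription factor needed to form blood and endothelium. All 10 libraries come from this line, in 5 groups of 2: doxycycline at day 2, untreated at day 2, Flk1-positive with doxycycline at day 2.5, doxycycline at day 2.5 and untreated at day 2.5. Flk1, the product of Kdr, marks precursors of blood and endothelium, and the labels do not say whether the 8 libraries marked as not Flk1-positive were unsorted or sorted as negative. Nothing in the labels says that replicates were separate cultures, so p-values cover no more than the spread among these samples, and that spread may be technical.

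Total counts ran from 18074070 to 36068329 a library. Etv2 had 507 and 403 CPM (counts scaled to a common library size by the trimmed mean of M values) with doxycycline at day 2, against 15.8 and 18.1 CPM in untreated day 2 samples. It had 323 and 303 CPM in Flk1-positive samples and 272 and 255 CPM in the other doxycycline samples of day 2.5, against 6.57 and 7.50 CPM in untreated samples of that day. The summed level of 5 endothelial markers was 1117 and 1101 CPM in Flk1-positive samples, 464 and 502 CPM in the other doxycycline samples of day 2.5, and 14.5 and 13.5 CPM in untreated samples of that day. At day 2 the sum was 122 and 172 CPM with doxycycline, against 48.5 and 52.0 CPM untreated. Kdr, the gene of Flk1 itself, made up 1008 and 986 CPM of the Flk1-positive sums. In the other doxycycline samples of day 2.5 Kdr had 405 and 433 CPM. Between these groups Tek was higher, with 73.1 and 75.3 CPM, against 23.9 and 28.2 CPM. Cdh5 was similar, with 29.8 and 33.75 CPM, against 27.7 and 31.2 CPM. Pecam1 was lower, with 5.29 and 5.51 CPM, against 7.06 and 9.65 CPM, and Emcn was at most 0.785 CPM. The 4 primitive streak markers summed to 739 and 710 CPM in Flk1-positive samples, to 806 and 780 CPM in the other doxycycline samples of day 2.5 and to 2485 and 2844 CPM in untreated samples of that day. At day 2 they summed to 1134 and 1244 CPM with doxycycline, against 1188 and 1158 CPM untreated. These sums joined genes that moved apart. T had 577 and 546 CPM in Flk1-positive samples, against 368 and 356 CPM in other doxycycline samples of day 2.5. Eomes had 123 and 130 CPM, against 336 and 333 CPM, and Mixl1 and Mesp1 were lower as well. At day 2 Mixl1 had 347 and 376 CPM with doxycycline, against 213 and 197 CPM untreated, and T was higher too. Eomes had 357 and 430 CPM, against 563 and 549 CPM, and Mesp1 was lower too. The 5 pluripotency markers summed to 1911 and 1417 CPM with doxycycline at day 2, against 1780 and 1933 CPM untreated. At day 2.5 they summed to 939 and 888 CPM in Flk1-positive samples, 932 and 901 CPM in the other doxycycline samples and 1431 and 1301 CPM in untreated samples. Most of this was Pou5f1, with 857.5 and 796 CPM in Flk1-positive samples, against 736.5 and 713 CPM in other doxycycline samples. Between the same groups Nanog had 1.445 and 2.70 CPM, against 73.5 and 73.4 CPM. Sox2 had 5.74 and 7.05 CPM, against 45.15 and 39.8 CPM. Zfp42 was lower as well, and Dppa4 had 68.2 and 75.55 CPM, against 65.6 and 62.7 CPM. The 4 blood markers summed to 15.2 and 16.3 CPM in Flk1-positive samples, against 3.19 and 2.31 CPM in the other doxycycline samples and 0.566 and 0.995 CPM in untreated samples of day 2.5. Itga2b made up 13.2 and 14.15 CPM of the Flk1-positive sums and Gata1 1.98 and 2.17 CPM. Hbb-bh1 and Ptprc had 0 CPM in both Flk1-positive libraries. The 4 heart muscle markers summed to at most 24.3 CPM and the 3 fibroblast markers to at most 13.2 CPM in every library, and no marker was at 0 everywhere. Marker levels moved with the comparisons below, the pluripotency sum being lower at day 2.5 and uneven in the doxycycline pair of day 2 as the members' sum was, and their part in the subunit values was not tested. In such bulk samples fewer cells of a type and less RNA per cell cannot be told apart.

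The region around the transcription start of members whose levels are described below is shown for the letters of an ETS element (CCGGAAG), since Etv2 is an ETS factor, and of the element of the respiratory chain regulator Nrf1 (GCGCA, any base, GCGC). Both strands were searched from 250 bases before to 50 bases after the RefSeq start (mouse build GRCm38.p6), and 65 of the 77 members had such a window. The ETS letters lay in 13 of 65 member windows, against 9.1% of 27025 windows of all genes. The Nrf1 letters lay in 14 of 65 (21.5%), against 4.8% of all windows. Each sequence reads 5′ to 3′ on the gene's strand, with the matched letters in capitals and 10 bases on each side.
Atp5e (chr2:174464187-174464213, minus strand, ETS letters): acggccacagCTTCCGGtagccgctcg
Cox6b1 (chr7:30626126-30626152, minus strand, ETS letters): cctctcgcagCTTCCGGccagtcggaa
Ndufb7 (chr8:83566728-83566754, plus strand, ETS letters): cctagatgacCCGGAAGacactgaagg
Cox6a1 (chr5:115348958-115348984, minus strand, ETS letters): cccatttccgCTTCCGGcgcgccggtg
Atp5k (chr5:108434430-108434459, minus strand, Nrf1 letters): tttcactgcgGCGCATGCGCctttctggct
Ndufs6 (chr13:73328479-73328508, minus strand, Nrf1 letters): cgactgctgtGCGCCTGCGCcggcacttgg
Ndufa8 (chr2:36049349-36049378, minus strand, Nrf1 letters): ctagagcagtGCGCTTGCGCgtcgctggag

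The first 3 of these genes were higher in Flk1-positive than in other doxycycline samples of day 2.5, and Cox6a1 was lower there. Of the genes shown with Nrf1 letters, Atp5k was higher in that comparison and Ndufs6 and Ndufa8 were lower. The windows of Cox6a1 and Atp5k held both kinds of letters. Cox6a1 also had Nrf1 letters 162 and 117 bases before the start, and Atp5k also had ETS letters after the start, which are not shown. A match is a string of letters and was not tested as a binding site.

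The members span a wide range of level. Complex V held 51.8% of the members' summed CPM, complex I 24.9%, complex IV 11.8% and complex III 10.7%. Per kilobase of transcript over the 10 libraries, Atp5b, the catalytic beta subunit of ATP synthase, was highest with 883 CPM per kb. Uqcrh, the hinge protein of complex III, led its complex with 303 CPM per kb, Cox8a led complex IV with 260 CPM per kb, and Ndufa7 led complex I with 131 CPM per kb. At the low end Uqcrfs1, the Rieske iron-sulfur protein, had 70.5 CPM per kb, the least of complex III, and Atp5l had 2.05 CPM per kb, the least of complex V.

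Ndufs5, an accessory subunit of complex I, and Cox8b, a heart and muscle isoform, had 0 counts in every library, which allows up to 0.0824 to 0.164 CPM depending on the library. Other tissue-restricted isoforms of complex IV were near 0, with Cox6a2 at no more than 4 counts, Cox8c at no more than 8 and Cox7b2 at no more than 15 counts in any library. These 5 genes did not pass the filter on low counts, so 72 members were tested. Ndufb4, Atp5g2 and Atp5l passed with 68, 223 and 259 counts over all libraries. Part of the low values coincided with sequence shared with other genes: 100% of the 50-base windows of Atp5g2, 84.8% of Atp5l, 41.2% of Ndufs5 and 37.0% of Ndufb4 also occur in a transcript of another gene. The 16 members with at least 25% of windows shared had a median of 19.1 CPM, against 62.8 CPM for the other 61. How the counting treated reads with several matches is not given in the sources used here, so the levels of these 16 are uncertain.

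Most members are short. The 72 tested had a median transcript length of 760.5 bases, and 48 of them (66.7%) were under 1000 bases, against a median of 2859 bases and 7.3% of all genes tested. Length matters because the doxycycline replicates of day 2 differed by it. Across all genes the replicate 2 minus replicate 1 difference rose with length (Spearman rho 0.49 over 14403 genes, a description), and in no other group was rho outside -0.10 to 0.11. Members were lower in replicate 2 in 69 of 72 cases, by a median of -0.48 on the log2 scale. The length trend of all genes at the members' own lengths was -0.40, and a median of -0.09 remained after the length trend was taken off. In the other 4 groups the members' median difference between replicates lay between -0.11 and 0.07. The pair also stood apart over all genes: the chi-square of its counts was 33.9 a gene, and in the remaining groups it was 3.40 to 10.1.

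**Figure D1:**
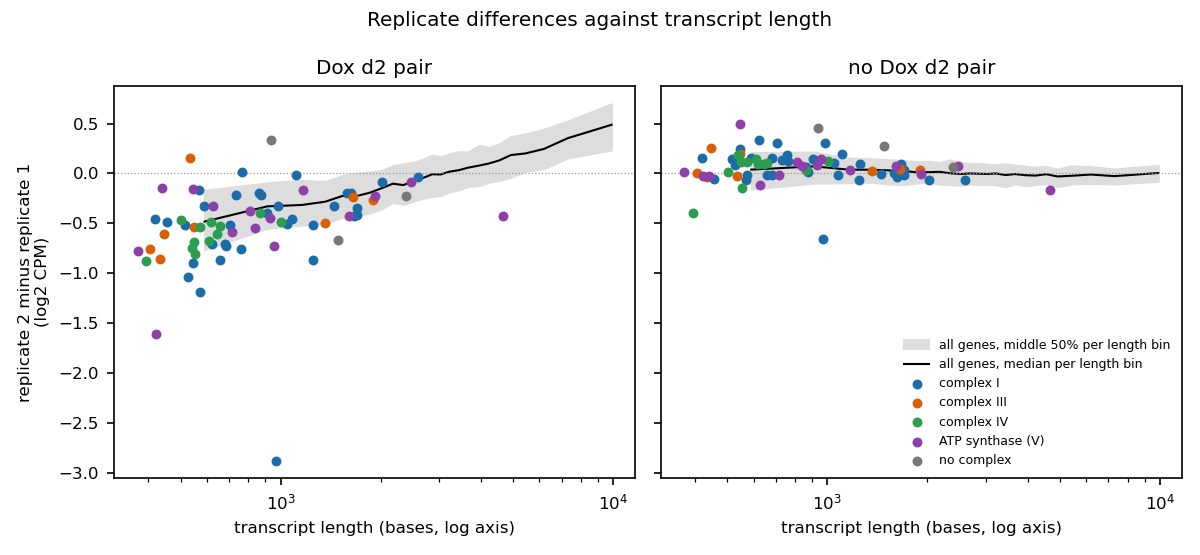
Replicate 2 minus replicate 1 in log2 CPM (y axis) against transcript length in bases (log x axis) for the tested members, coloured by complex, with the median and middle 50% of all genes per length bin, for the doxycycline (left) and untreated (right) pairs of day 2. In the doxycycline pair 69 of 72 members lie below 0 along the all-gene curve; the lowest point is Ndufb4, which has 68 counts over all libraries.

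The summed level of all members showed the same split. It was 10520 and 8307 CPM with doxycycline at day 2, against 9381 and 9726 CPM untreated. At day 2.5 it was 6853 and 6556 CPM in Flk1-positive samples, 7192 and 7075 CPM with doxycycline and 7927 and 7996 CPM untreated. All 6 sums of day 2.5 were below all 4 of day 2, and within day 2.5 the 3 groups did not overlap. That order within day 2.5 was not shared by every complex. Complex V, which held the most, summed to 3282 and 3224 CPM in Flk1-positive samples, 3659 and 3658 CPM in other doxycycline samples and 4196 and 4101 CPM untreated. Its sum leaned on a single gene there: Atp5a1 had 889.5 and 905.6 CPM in Flk1-positive samples, against 1288 and 1315 CPM in other doxycycline samples. Gene by gene, 10 of 15 complex V members were higher than in other doxycycline samples, called or not, at a median log2 fold change of 0.21. Complex IV was higher in Flk1-positive samples, at 938 and 843 CPM, than in other doxycycline samples, at 784 and 751 CPM, and overlapped the untreated 862 and 841 CPM. Complex I overlapped, at 1824 and 1699 CPM in Flk1-positive samples, against 1864 and 1802 CPM in other doxycycline samples. At day 2 the doxycycline pair lay on both sides of the untreated pair.

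**Figure D2:**
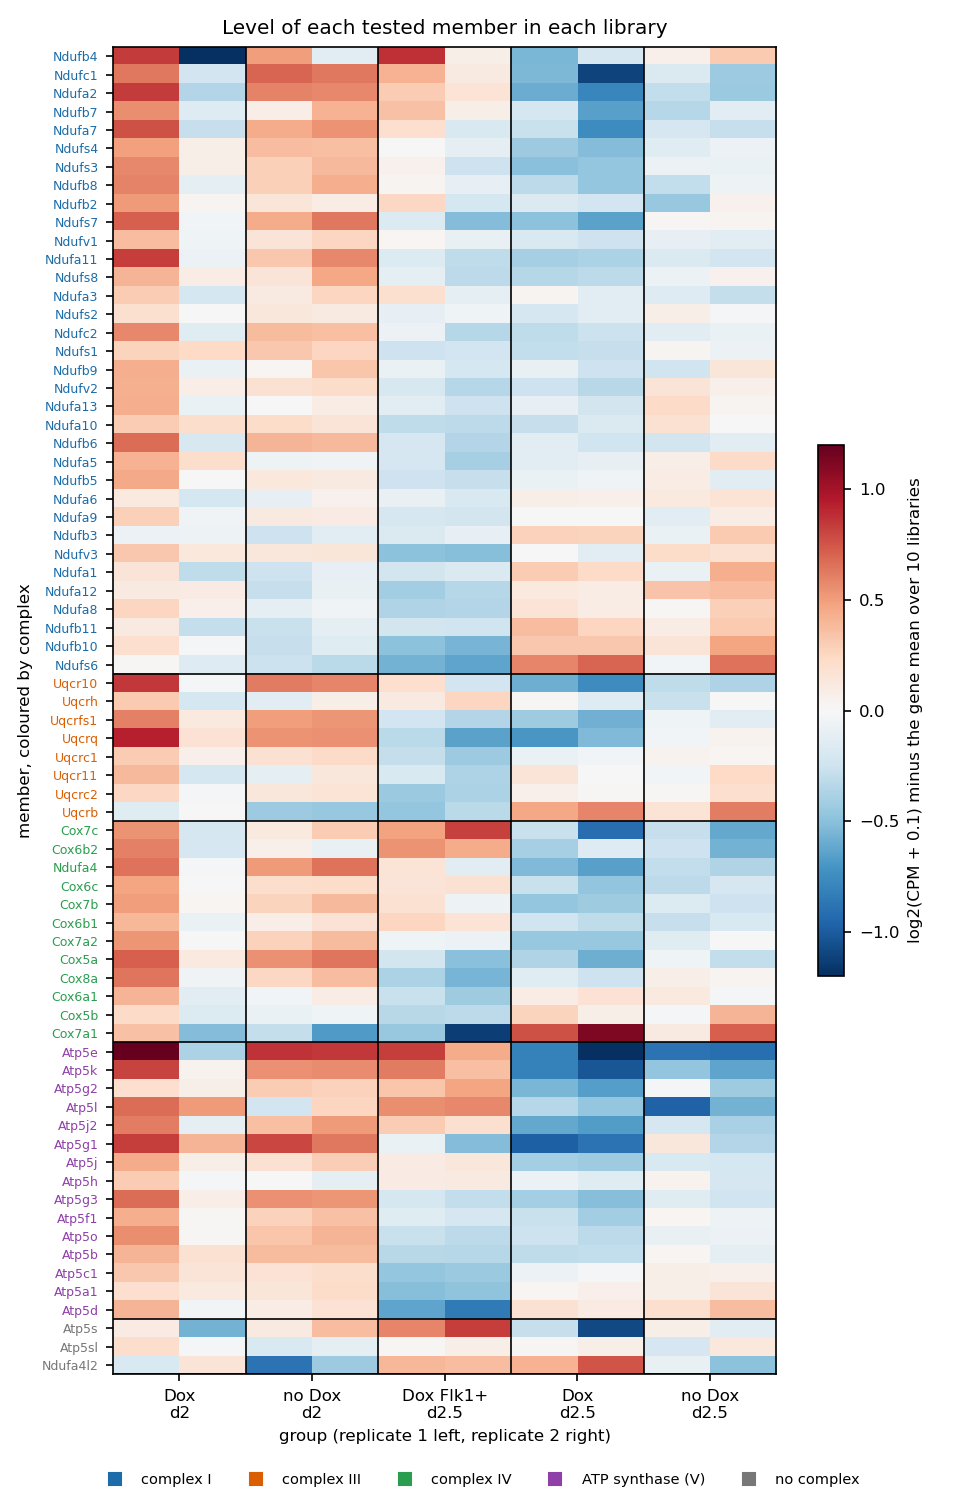
Heat map of log2(CPM + 0.1) minus the gene's mean over the 10 libraries for the 72 tested members (rows, ordered by complex and then by the Flk1-positive minus doxycycline difference of day 2.5) in each library (columns). The first column, doxycycline day 2 replicate 1, is high across nearly all rows and its partner is not; in most of the topmost rows of complexes I, IV and V the Flk1-positive columns lie above both other day 2.5 groups, and in most of the lowest rows of complexes I and V below them.

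The first comparison asks whether induction of Etv2 changed these genes by day 2. With doxycycline at day 2, 0 of 72 members were higher and 0 lower than in untreated samples by the quasi-likelihood test of edgeR at a Benjamini-Hochberg adjusted p of 0.05, where 3.11% of all genes tested were higher and 1.56% lower. The members' median log2 fold change was -0.00, from -0.45 to 0.68. This absence of calls changed with which doxycycline libraries entered the fit. Without doxycycline replicate 1 edgeR called 22 members lower and 1 higher (4.88% and 6.89% of all genes), and without replicate 2 it called 15 higher and 0 lower (6.80% and 8.48% of all genes). Atp5e, the epsilon subunit of the ATP synthase F1 part, shows the spread: it had 42.7 and 13.98 CPM with doxycycline, against 33.4 and 32.9 CPM untreated. With length and GC trends removed 0 were higher and 0 lower (5.02% and 3.24% of all genes). No direction can be given for the members at day 2 from these libraries.

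At day 2.5 the doxycycline samples were set against untreated samples of the same day. In edgeR 12 of 72 members were lower and 1 was higher, beside 13.8% of all genes lower and 16.1% higher, so the share of members that fell (16.7%) was close to that of all genes and the share that rose was below it. The members' median was -0.18 and that of all genes 0.00, and 57 of 72 members lay below 0. The length trend of all genes at the members' lengths was -0.14, and with length and GC trends removed the members' median was -0.09. The falls were spread over all complexes, with 6 of 34 in complex I, 2 of 8 in III, 1 of 12 in IV and 3 of 15 in V.

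Atp5g1, 1 of 3 genes for subunit c of the ATP synthase ring, fell most. It had 15.0 and 16.1 CPM with doxycycline, against 32.7 and 23.4 CPM untreated, and the groups did not overlap although the untreated values were far apart. The log2 fold change was -0.85 ± 0.18 (standard error, n = 2 libraries a group) with an edgeR Benjamini-Hochberg adjusted p of 0.00269. Atp5g3, which encodes the same mature subunit, had 152 and 142 CPM with doxycycline, against 183 and 171 CPM untreated (log2 -0.27 ± 0.14, edgeR adjusted p = 0.164). Uqcrq of complex III had 30.4 and 34.2 CPM with doxycycline, against 48.2 and 51.0 CPM untreated (log2 -0.62 ± 0.19, edgeR adjusted p = 0.0228).

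Among the 7 core subunits of complex I, which carry the flavin and the iron-sulfur clusters or line the quinone site, 3 fell. Ndufs7 had 23.9 and 21.5 CPM with doxycycline, against 33.9 and 34.4 CPM untreated (log2 -0.59 ± 0.19). Ndufv2 fell by 0.39 and Ndufs1 by 0.27 on the log2 scale, and the log2 fold changes of all 7 lay between -0.59 and -0.10. Uqcrfs1 fell by 0.41 in complex III and Cox7a2 by 0.38 in complex IV. The accessory complex I genes Ndufs4, Ndufa10 and Ndufv3 fell by 0.37, 0.32 and 0.26, and Atp5f1 and Atp5b of the ATP synthase by 0.32 and 0.26.

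Ndufa4l2, a paralogue of Ndufa4 known as a target of hypoxia signalling, was the member that rose. It had 3.13 and 3.98 CPM with doxycycline, against 2.18 and 1.62 CPM untreated (log2 0.91 ± 0.32, edgeR adjusted p = 0.0439). Its call was lost with DESeq2 and in every fit that left out 1 of the 8 libraries outside the doxycycline day 2 pair.

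The day 2.5 count depended on single libraries. Without doxycycline day 2.5 replicate 1 or 2 edgeR called 4 or 1 members lower (9.02% or 6.88% of all genes), and without untreated day 2.5 replicate 1 or 2 it called 0 or 5 (7.98% or 8.88% of all genes). Without either untreated day 2 library it called fewer members lower than the full fit did, and a smaller share of all genes. Without either doxycycline day 2 library, which enter through the shared estimate of spread, it called 30 lower, beside 19.6% of all genes. With the length and GC trends of all genes removed, all 13 calls were kept, and 13 members were lower and 2 higher (20.2% and 17.5% of all genes).

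The Flk1-positive samples were set against the other doxycycline samples of the same day. Here the members moved apart from one another: in edgeR 18 of 72 were higher and 16 lower, beside 20.5% of all genes higher and 21.3% lower. Both shares (22.2% of the members were lower) were near those of all genes, so it is the composition of each side that is described. Complex IV had 7 of 12 members higher and 2 lower, complex V 5 of 15 higher and 3 lower, complex I 4 of 34 higher and 8 lower, and complex III 1 of 8 higher and 3 lower. The 7 core subunits of complex I had no call in either direction at log2 fold changes of 0.03 to 0.39.

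**Figure D3:**
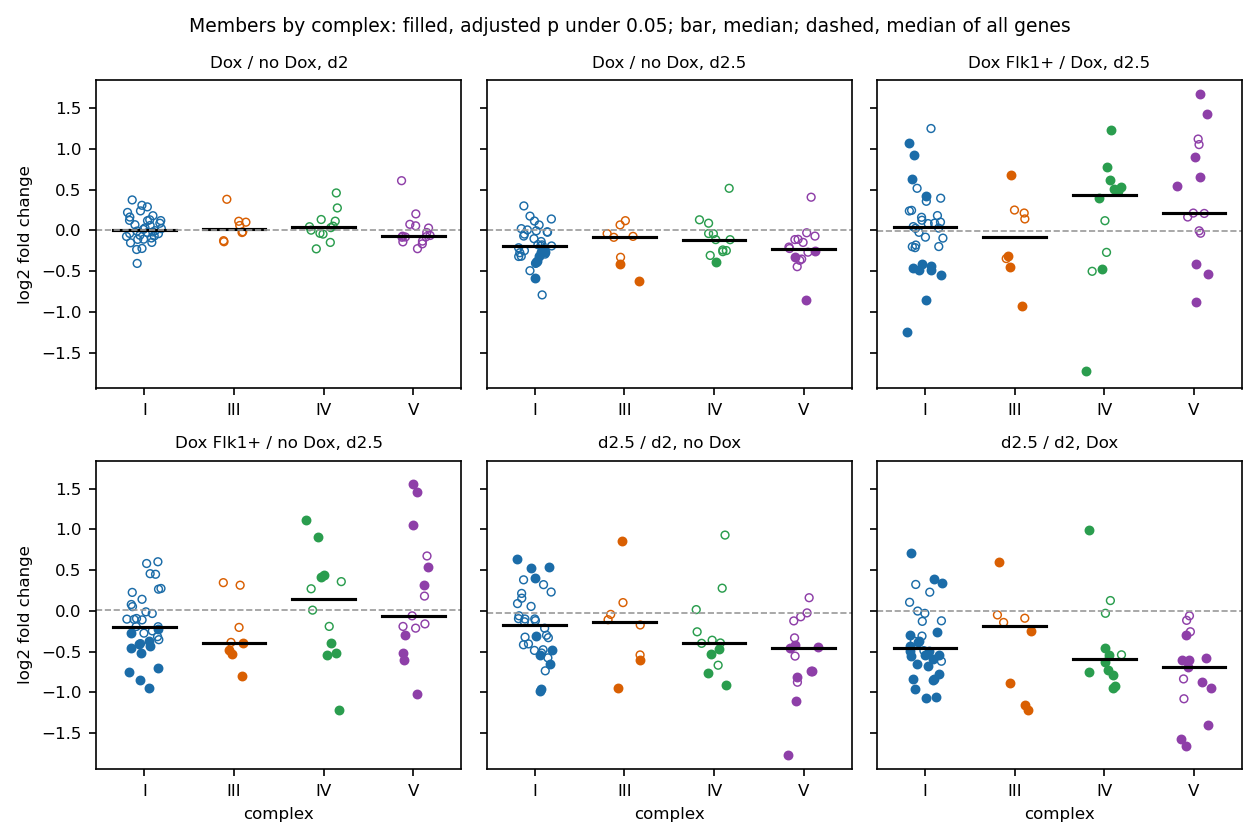
Log2 fold change of each tested subunit (points, filled where the edgeR adjusted p is under 0.05) by complex for 6 comparisons, with the median of each complex (bar) and of all genes tested (dashed line); the 3 members outside the complexes are not drawn. Points spread widest in the Flk1-positive panels, where ATP synthase subunits run from -0.88 to 1.67 against other doxycycline samples, and most points lie below 0 in the panels of day 2.5 over day 2.

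Small subunits of the ATP synthase led the rise. Atp5e (chr2:174461072-174464105, minus strand) had 32.5 and 24.9 CPM in Flk1-positive samples, against 10.3 and 7.71 CPM in other doxycycline samples (log2 1.67 ± 0.38, edgeR Benjamini-Hochberg adjusted p = 0.00408). Atp5k (chr5:108433244-108434448, minus strand), the e subunit of the membrane part, had 73.7 and 61.2 CPM, against 27.1 and 23.4 CPM (log2 1.42 ± 0.19, edgeR adjusted p = 5.91e-05). For both genes the Flk1-positive libraries lay far above the other doxycycline samples and at about the level of untreated day 2 libraries, which had 33.4 and 32.9 CPM of Atp5e and 69.8 and 70.7 CPM of Atp5k. Atp5j2, the f subunit, rose by 0.90 ± 0.17, and Atp5j, the coupling factor of the peripheral stalk, rose by 0.54 ± 0.11. Atp5g1 of subunit c had 28.2 and 20.7 CPM, against 15.0 and 16.1 CPM (log2 0.66 ± 0.19, edgeR adjusted p = 0.0106), and its call was lost without doxycycline day 2.5 replicate 1 or Flk1-positive replicate 1. Among the members outside the complexes, Atp5s had 6.20 and 7.36 CPM in Flk1-positive samples, against 3.38 and 1.88 CPM in other doxycycline samples (log2 1.36 ± 0.30, edgeR adjusted p = 0.00227).

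In complex IV, Cox7c had 7.23 and 9.17 CPM in Flk1-positive samples, against 4.26 and 2.69 CPM in other doxycycline samples (log2 1.23 ± 0.29, edgeR adjusted p = 0.00303). In complex III, Uqcr10 had 56.7 and 42.0 CPM, against 32.7 and 29.1 CPM (log2 0.68 ± 0.22, edgeR adjusted p = 0.0233). Cox7c shares 53.0% of its windows with other genes, and Uqcr10 shares 0%. Ndufc1, Ndufa2 and Ndufb7 of complex I rose by 1.08, 0.92 and 0.63. The other complex IV genes called higher were Cox6b2, an isoform typical of testis, at 0.77, Ndufa4 at 0.62, Cox6c, Cox7b and Cox6b1 at 0.54, 0.51 and 0.48, and Cox7a2 at 0.39.

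Other subunits of the same complexes fell. Ndufs6 (chr13:73319838-73328542, minus strand), a zinc-binding accessory subunit of complex I, had 41.5 and 39.5 CPM in Flk1-positive samples, against 92.2 and 99.8 CPM in other doxycycline samples (log2 -1.25 ± 0.16, edgeR adjusted p = 3.28e-05). Uqcrb (chr13:66900617-66905378, minus strand), which binds ubiquinone in complex III, had 47.2 and 52.1 CPM, against 90.2 and 97.9 CPM (log2 -0.92 ± 0.13, edgeR adjusted p = 4.58e-05). Ndufb10 (chr17:24722060-24724478, minus strand) had 52.0 and 49.6 CPM, against 91.7 and 91.6 CPM (log2 -0.85 ± 0.11, edgeR adjusted p = 3.35e-05). None of these groups overlapped. Uqcrb shares 43.4% of its windows with other genes and overlaps an annotated neighbour over 9.3% of its length, whereas Ndufb10 shares 0% and overlaps none.

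Cox7a1 (chr7:30184144-30186078, plus strand), the heart and muscle isoform of its subunit, fell most, with 2.77 and 1.70 CPM in Flk1-positive samples, against 6.56 and 8.43 CPM in other doxycycline samples (log2 -1.73 ± 0.34, edgeR adjusted p = 0.00087). Its level was low, with 32 to 292 counts a library. The summed level of the 4 heart muscle markers was 12.4 and 12.2 CPM in the Flk1-positive samples, against 16.6 and 15.5 CPM. Of these, Myh6 was lower, with 7.43 and 6.15 CPM, against 12.3 and 11.3 CPM. Actn2 was higher, with 4.83 and 5.775 CPM, against 4.26 and 3.84 CPM. Myh7 was at most 0.318 CPM and Tnnt2 was at 0 CPM in these samples. The part of these markers in the Cox7a1 value was not tested. In the F1 head of ATP synthase, the delta subunit Atp5d fell by 0.88, the alpha subunit Atp5a1 by 0.54 and the gamma subunit Atp5c1 by 0.41, while the epsilon subunit Atp5e rose. Ndufb11, Ndufa8, Ndufa12, Ndufa1, Ndufv3 and Ndufb3 of complex I fell by 0.55, 0.49, 0.49, 0.47, 0.44 and 0.41, Cox6a1 fell by 0.48, and the core proteins Uqcrc2 and Uqcrc1 fell by 0.45 and 0.31.

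**Figure D4:**
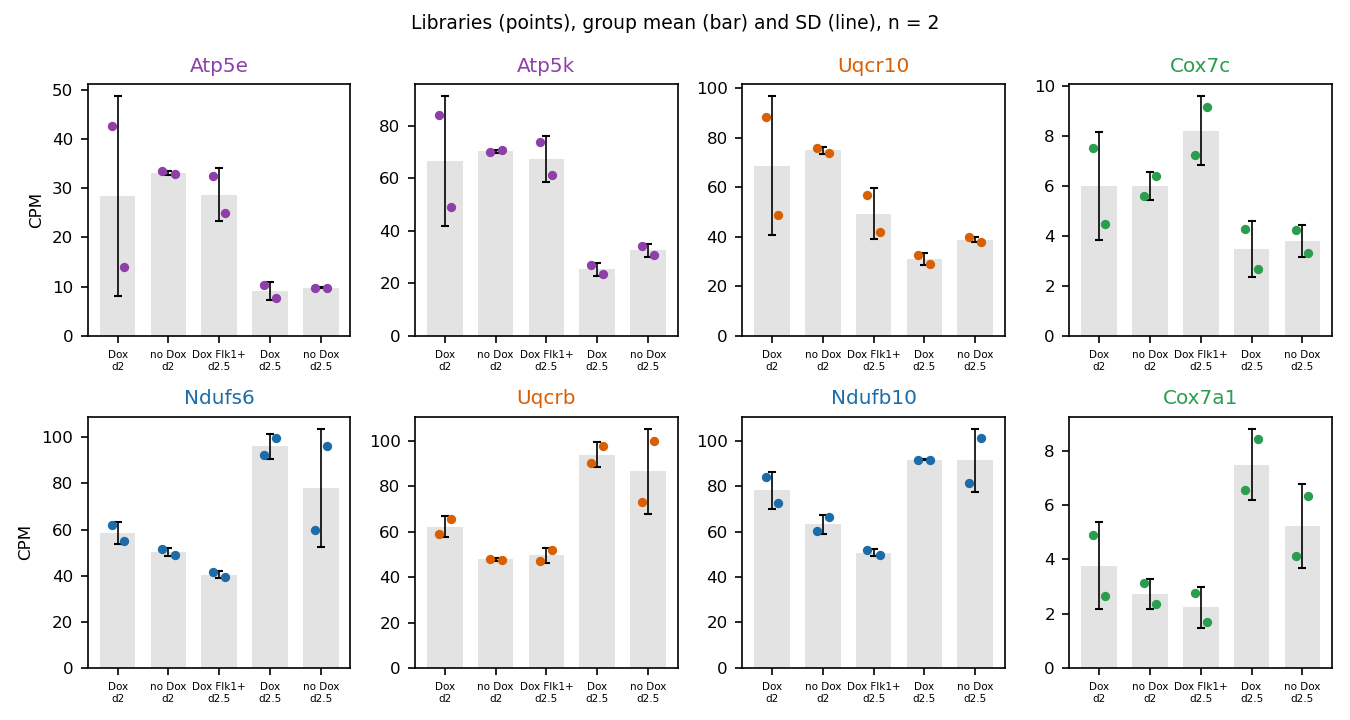
CPM of 8 members in each library (points), with the group mean (bar, from 0) and SD (line, n = 2). Points of Atp5e, Atp5k, Uqcr10 and Cox7c (top) lie higher in Flk1-positive samples than in both other day 2.5 groups, though Uqcr10 passed the test against the other doxycycline samples alone; Ndufs6, Uqcrb, Ndufb10 and Cox7a1 (bottom) lie lower, and the doxycycline day 2 pair is far apart for Atp5e, Atp5k and Uqcr10.

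The rise rested more on single libraries than the fall did. Without doxycycline day 2.5 replicate 2, and likewise without Flk1-positive replicate 1, edgeR called 8 members higher in place of 18 (12.7% and 13.4% of all genes), while 11 to 22 were called lower whichever single library was left out. Among the rises Atp5e, Atp5k, Atp5s, Atp5j2 and Atp5j, and among the falls Cox7a1, Ndufs6, Uqcrb, Atp5d, Ndufb10, Ndufb11, Atp5a1, Ndufa8, Uqcrc2, Ndufv3 and Atp5c1 kept their calls in every such fit. With the length and GC trends removed, 33 of 34 calls were kept, Cox7a2 being the exception, and 18 members were higher and 22 lower (24.3% and 24.9% of all genes). Several sizes moved by over 1.5 times on the log2 scale when the trends were removed. Atp5k came to 0.88, Uqcr10 to 0.27, Cox6b2 to 0.50, Cox6c to 0.29, Cox6b1 to 0.28 and Cox7a2 to 0.20, while Ndufa1 came to -0.85 and Cox6a1 to -0.72. Uqcrq, at 0.14 and not called before, came to -0.34 and was called lower (edgeR adjusted p = 0.0107). The Flk1-positive pair differed by GC content (Spearman rho -0.38 over 14403 genes, a description). The genes called higher had a median length of 620.5 bases and those called lower 884.5 bases.

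Against untreated samples of day 2.5, edgeR called 10 members higher and 23 lower in Flk1-positive samples, beside 28.6% of all genes higher and 26.6% lower. The share of members that rose, 13.9%, was below that of all genes. The Flk1-positive libraries are the same as in the comparison above, so the values are given side by side and are not a second test. Atp5e stood 1.56, Atp5l 1.46, Cox7c 1.12, Atp5k 1.05, Cox6b2 0.90, Atp5s 0.75, Atp5j2 0.54, Cox6b1 0.44, Cox6c 0.42 and Atp5j 0.31 log2 units higher than in untreated samples. Atp5l, a small membrane subunit, had 1.57 and 1.59 CPM in Flk1-positive samples, against 0.479 and 0.663 CPM untreated, and its call was lost without either Flk1-positive library or untreated day 2.5 replicate 1. In the other direction, Cox7a1 1.21, Atp5d 1.02, Ndufs6 0.95 and Ndufb10 0.85 log2 units lower than in untreated samples. Complex I had 0 of 34 members higher and 11 lower, complex III 0 of 8 higher and 4 lower, complex IV 4 of 12 higher and 4 lower, and complex V 5 of 15 higher and 4 lower. Without Flk1-positive replicate 1 or 2 the number higher was 4 or 5 (21.3% or 21.8% of all genes), without untreated day 2.5 replicate 1 or 2 it was 5 (23.2% or 21.5%), and without either doxycycline day 2 library it was 18 (31.6%). Without Flk1-positive replicate 2 the number lower was 15 (22.5%). With length and GC trends removed 16 were higher and 29 lower (29.4% and 31.0% of all genes), with 3 higher in complex I and 1 in complex III, and Atp5k came to 0.65.

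The next comparison follows untreated embryoid bodies over time. At day 2.5, 20 of 72 members were lower and 5 higher than at day 2 in edgeR, beside 10.3% of all genes lower and 9.22% higher. The share of members that fell was 27.8%, and their median was -0.32, against -0.02 for all genes. The fall was most frequent in complex V, with 8 of 15, followed by 4 of 12 in complex IV, 2 of 8 in III and 6 of 34 in I. Part of the median followed length: the trend of all genes at the members' lengths was -0.18, and with length and GC trends removed the members' median was -0.14, with 25 lower and 14 higher (15.1% and 14.1% of all genes).

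Atp5e again changed most, at 9.79 and 9.70 CPM in untreated day 2.5 samples, against 33.4 and 32.9 CPM at day 2 (log2 -1.77 ± 0.38, edgeR Benjamini-Hochberg adjusted p = 0.00902). Atp5k had 34.3 and 30.8 CPM, against 69.8 and 70.7 CPM (log2 -1.11 ± 0.19, edgeR adjusted p = 0.00186), and Ndufa4 had 92.6 and 88.2 CPM, against 162 and 179 CPM (log2 -0.91 ± 0.17, edgeR adjusted p = 0.00274). The groups did not overlap for any of these. Both subunit c genes with appreciable counts fell, Atp5g1 by 0.81 and Atp5g3 by 0.73. Ndufc1, Ndufa2 and Ndufa11 of complex I fell by 0.98, 0.95 and 0.66, Uqcr10 and Uqcrfs1 of complex III by 0.95 and 0.61, Cox5a by 0.76 and Atp5j2 by 0.74. Uqcrb was the clearest of the 5 that rose, with 73.3 and 100 CPM, against 48.2 and 47.5 CPM (log2 0.86 ± 0.13, edgeR adjusted p = 0.000607). Ndufs6 rose by 0.63, Ndufa12 by 0.54, Ndufb10 by 0.53 and Ndufb11 by 0.40, all in complex I.

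The day counts depended on which libraries entered the fit. When untreated day 2 replicate 1 or 2 was left out, edgeR called 8 or 6 members lower (3.20% or 3.06% of all genes) and 1 or 2 higher (2.76% or 2.70%). Without untreated day 2.5 replicate 1 it called 11 lower (6.38%), and without replicate 2 it called 2 lower and 1 higher (2.15% and 2.39%). Without doxycycline day 2 replicate 1 or 2 it called 36 lower (16.9% or 16.8%) and 8 higher (15.1% or 15.0%), and without doxycycline day 2.5 replicate 2 it called 3 higher (7.15%). Atp5k, Ndufa4 and Uqcrb kept their calls in every such fit.

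With doxycycline, 42 of 72 members were lower and 5 higher at day 2.5 than at day 2 in edgeR, beside 23.1% of all genes lower and 22.9% higher. The median was -0.52, of which the length trend of all genes at the members' lengths was -0.36, and with length and GC trends removed it was -0.17 with 32 lower and 14 higher (26.6% and 24.0% of all genes). Of the 47 calls, 37 were kept with the trends removed. All 7 core subunits of complex I fell, by 0.26 to 0.96, and 6 of them were lower with the trends removed. Atp5g1 had 15.0 and 16.1 CPM at day 2.5, against 53.0 and 39.5 CPM at day 2 (log2 -1.57 ± 0.18, edgeR adjusted p = 1.02e-05), a gap larger than that between the replicates of the uneven day 2 pair. Atp5e fell by 1.65, Atp5k by 1.40, Uqcrq by 1.22, Uqcr10 by 1.15, Ndufc1 by 1.07 and Ndufa2 by 1.05. Atp5k, Uqcrq, Uqcr10 and Ndufa2 came to -0.89, -0.74, -0.66 and -0.60 with the trends removed. Cox7a1 rose by 0.99, Ndufs6 by 0.71, Uqcrb by 0.59, Ndufb11 by 0.40 and Ndufb3 by 0.34. Without doxycycline day 2 replicate 1 the counts were 28 lower and 9 higher (20.7% and 20.2% of all genes), and without replicate 2 they were 54 and 2 (25.8% and 25.3%). Without doxycycline day 2.5 replicate 1 or 2, 3 were higher (16.1% or 16.0%), and without replicate 2, 28 were lower (15.5%).

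The effect of doxycycline at day 2.5 minus that at day 2 was called for 1 member, Ndufa5 of complex I, which was lower (5.24% of all genes were lower and 6.87% higher). Ndufa5 had 36.5 and 37.5 CPM with doxycycline at day 2.5, against 42.4 and 47.2 CPM untreated, and 53.6 and 46.3 CPM with doxycycline at day 2, against 38.3 and 38.9 CPM untreated. The log2 difference of the effects was -0.65 ± 0.16 (edgeR adjusted p = 0.0174). Without doxycycline day 2 replicate 2 edgeR called 32 members lower in this contrast (13.0% of all genes), and without replicate 1 it called 2 lower and 4 higher (8.81% and 9.19%). With length and GC trends removed it called 4 lower and 1 higher (10.5% and 8.65% of all genes).

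The Flk1-positive comparison and the time course of untreated samples have no library in common, and across the members they ran in opposite directions. Pearson's r between their log2 fold changes was -0.83 over the 72 members (Spearman rho -0.81), and -0.82 with length and GC trends removed. It was -0.10 over all 14548 genes and -0.17 over 1001 other genes under 1000 bases, and -0.68 over 76 mitochondrial and -0.44 over 82 cytosolic ribosomal protein genes. These are descriptions across genes, which are not independent replicates and share libraries within each comparison. Within complexes I, III, IV and V r was -0.81, -0.92, -0.88 and -0.88 over 34, 8, 12 and 15 members.

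Of the 18 members higher in Flk1-positive than in other doxycycline samples, 12 (66.7%) were among the 20 that were lower in untreated samples at day 2.5 than at day 2: Atp5e, Atp5g1, Atp5j, Atp5j2, Atp5k, Cox6c, Cox7b, Ndufa2, Ndufa4, Ndufc1, Ndufs4 and Uqcr10. The 5 that were higher at day 2.5 in untreated samples, Ndufa12, Ndufb10, Ndufb11, Ndufs6 and Uqcrb, were all among the 16 lower in Flk1-positive samples (31.2%). No member moved the same way past the threshold in both, and 61 of 72 (84.7%) had opposite signs. Over all genes tested 60.8% had opposite signs, 38.3% of those lower over time were higher in Flk1-positive samples, and 55.4% of those higher over time were lower there. Not all comparisons without a common library ran in opposite directions. Between the time courses with and without doxycycline, r was 0.93 over the members and 0.34 over all genes. Between the doxycycline effects of day 2 and day 2.5 it was 0.72 and 0.40. Between Flk1-positive against untreated samples and the doxycycline effect at day 2, r was -0.26 over the members and 0.33 over all genes. Between Flk1-positive against untreated samples and the time course with doxycycline, r was -0.59 over the members and 0.46 over all genes. In that pair 37 of 72 members had opposite signs (51.4%, against 38.6% of all genes), 10 were lower in both, 7 were higher in Flk1-positive samples and lower over time, and 4 the reverse. Between Flk1-positive against other doxycycline samples and the doxycycline effect at day 2, r was -0.54 over the members and 0.10 over all genes, and 52 of 72 signs were opposite. The day 2.5 doxycycline and untreated groups, which enter 1 comparison each, were close in many of these genes, such as Atp5e at 10.3 and 7.71 CPM with doxycycline, against 9.79 and 9.70 CPM untreated.

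**Figure D5:**
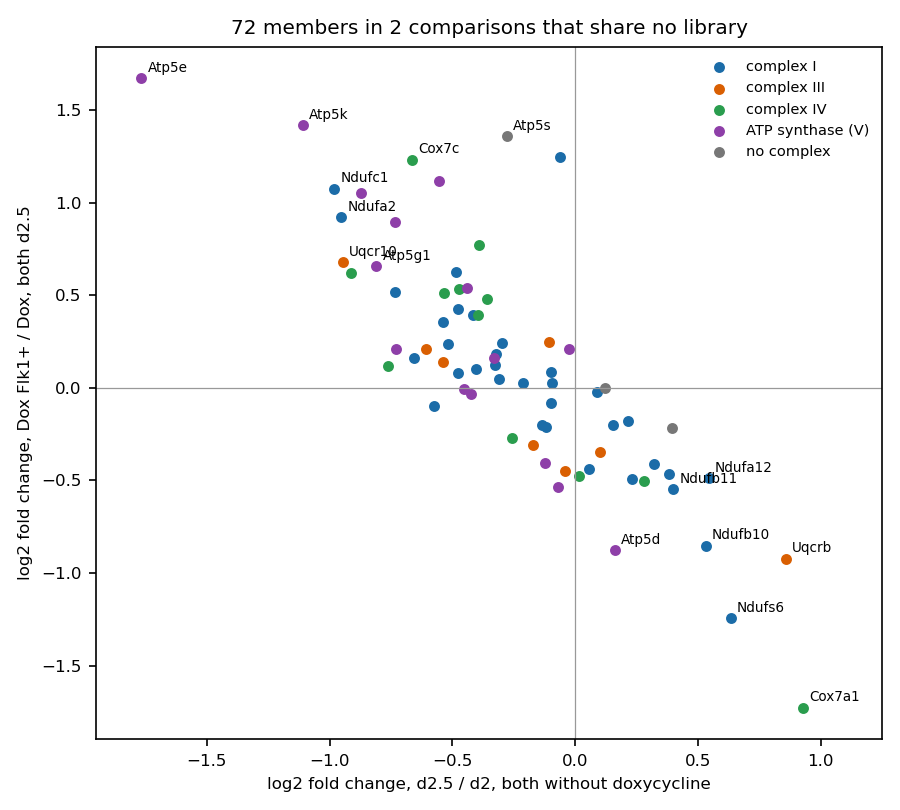
Log2 fold change of Flk1-positive over other doxycycline samples of day 2.5 (y axis) against that of day 2.5 over day 2 in untreated samples (x axis) for the 72 tested members, coloured by complex. The points run from Atp5e at upper left (-1.77, 1.67) to Cox7a1 at lower right (0.93, -1.73), and 61 of 72 lie in the upper left or lower right quadrant.

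Properties of the genes tracked these changes weakly. Across the 72 members, Spearman's rho of the log2 fold change with length, GC content, exon number, shared sequence or mean level was between -0.35 and 0.19 in the 7 comparisons, as descriptions. The 13 tested members with ETS letters in the start window had a median of 0.25 in Flk1-positive over other doxycycline samples with 4 higher and 1 lower, and the 49 with a window but no such letters had 0.10 with 12 higher and 12 lower. For the Nrf1 letters the medians were -0.01 with 1 higher and 4 lower in 13 members with them, and 0.16 with 15 higher and 9 lower in 49 without. With doxycycline against untreated samples of day 2.5, where 13.8% of all genes were lower, 0 of 13 members with ETS letters and 10 of 49 without were lower, and the counts for the Nrf1 letters were the same, 0 of 13 and 10 of 49. The difference between members with and without letters was not tested.

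Genes around the respiratory chain gave the following counts in edgeR with doxycycline at day 2.5 against untreated samples, where 13.8% of all genes were lower and 16.1% higher. Of 76 mitochondrial ribosomal protein genes, 36 were lower and 0 higher, at a median of -0.34. Of 14 regulators of mitochondrial gene expression tested, 7 were lower and 0 higher, among them Peo1, the mitochondrial helicase, which fell by 0.77, the transcription factor Tfb2m by 0.65 and the DNA polymerase Polg by 0.43. Nrf1 and Gabpa, which bind the Nrf1 and ETS elements in such genes, had log2 fold changes of 0.08 ± 0.09 and 0.07 ± 0.14 (edgeR adjusted p = 0.585 and 0.743).

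Of 26 assembly factors tested, 3 were lower, led by Ndufaf4 of complex I with 34.5 ± 3.93 CPM with doxycycline, against 70.4 ± 7.87 CPM untreated (SD, n = 2 each), a fall by 1.03 on the log2 scale. Of 4 complex II genes, Sdhd fell by 0.42. Among 8 other subunits and carriers, Cycs, somatic cytochrome c, fell by 1.22, Cyc1 by 0.40, and Cox4i2, an isoform known to respond to low oxygen, rose by 2.54 ± 0.75 at a mean of 1.14 CPM with doxycycline, against 0.193 CPM untreated. Of 20 glycolytic genes 7 were lower and 4 higher, with Hk2 and Ldha falling by 1.01 and 0.84. Pdk1, which holds back the use of pyruvate in the mitochondrion, rose by 1.36.

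In Flk1-positive against other doxycycline samples, where 21.3% of all genes were lower and 20.5% higher, glycolytic genes were lower in 13 of 20 cases and higher in 1, with Pdk1 falling by 1.05 and Gpi1 by 0.86. Mitochondrial ribosomal proteins had 11 higher and 15 lower of 76. Assembly factors had 3 higher and 1 lower of 26, complex II 0 higher and 2 lower of 4, other subunits and carriers 2 higher and 0 lower of 8, and regulators 2 higher and 2 lower of 14. Cytosolic ribosomal proteins had 32 higher and 10 lower of 82. Cycs rose by 1.56, and Ppargc1b had 3.32 ± 1.09 CPM in Flk1-positive samples, against 8.85 ± 0.314 CPM in other doxycycline samples (SD, n = 2 each), a fall by 1.39 on the log2 scale.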

How the data were processed

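RNA was sequenced from 10 libraries in 5 groups of 2, grouped by the labels. The authors deposited raw counts per gene. TopHat, HTSeq and DESeq2, with mm10, are named in the submitters' processing notes without versions; the annotation, strand setting and treatment of reads with several matches are not given there, so reads of overlapping or near-identical genes cannot be told apart. Of 23429 entries, 92 spike-in sequences had 0 counts and were left out.

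Counts were fitted with edgeR 4.0.16 in R 4.3.3: filterByExpr (minimum count 10, total 15; 14548 genes kept), TMM scaling and a robust quasi-likelihood model with 1 mean per group over all 10 libraries, leaving 5 residual degrees of freedom. The 7 comparisons were each adjusted by Benjamini-Hochberg over all genes tested, at a threshold of 0.05. CPM values use TMM-scaled library sizes, whose floor for 0 counts is 3 counts (counting error only). Log2 fold changes carry the standard error from the F statistic. The libraries of every pair differed beyond sampling noise.

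Lengths and GC content come from 1 transcript per gene of GENCODE M21 (GRCm38, the same build as mm10); 22872 entries and all 77 members matched, 1919 entries through an older symbol. Length and GC trends of all genes were removed by lowess offsets (span 0.3). Start windows are from RefSeq. Alternatives were DESeq2 1.42.0, its size factors, no filter, the compared groups alone, trends removed, a replicate block, each library left out and, added after the data were seen, both doxycycline day 2 libraries left out. The procedure was tested on simulated data.

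The members and the lists (complex II, other subunits and carriers, assembly factors, regulators, mitochondrial and cytosolic ribosomal proteins, glycolysis) were chosen with earlier results of these data known. Of 44 assembly factors, 27 were in the table. Members were named where they passed the threshold, up to 12 in each direction by size of change, with the highest and lowest of each complex, tissue-restricted isoforms and subunit c genes; up to 4 genes a list were named by smallest adjusted p, and Nrf1, Gabpa and members listed beyond 12 were added after their values were seen.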

Additional observations from a re-analysis of the deposited data

Results flagged for a closer look

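Ndufa5, an accessory subunit of complex I, was flagged because the effect of doxycycline differed between the days in a test of that difference. Its log2 fold change was -0.27 ± 0.11 at day 2.5 and 0.37 ± 0.12 at day 2, neither past the threshold on its own (edgeR Benjamini-Hochberg adjusted p = 0.0859 and 0.0897), and the difference was -0.65 ± 0.16 (edgeR adjusted p = 0.0174). With length and GC trends removed the difference was -0.48 (edgeR adjusted p = 0.0191). Over the fits that left out 1 library it lay between -0.75 and -0.54, with edgeR adjusted p from 0.000428 to 0.0898, and the call was lost without either untreated day 2 library, without either doxycycline day 2.5 library and without untreated day 2.5 replicate 2.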

How the results depend on the processing

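No called change of a named member changed sign under the alternatives run, and DESeq2's size factors moved no count past 1.5 times. The balance of calls did turn: with doxycycline at day 2 it was 22 lower and 1 higher without doxycycline day 2 replicate 1 but 15 higher and 0 lower without replicate 2, and in the interaction it was 2 lower and 4 higher against 32 lower and 0 higher. With trends removed, Uqcrq in Flk1-positive against other doxycycline samples, and Cox6a1, Ndufa3, Ndufa8, Uqcr11 and Uqcrh over time with doxycycline, none called before, changed sign and were called. Without the low-count filter, 25 members were lower with doxycycline at day 2.5 (13.7% of all genes). In the same fit 16 were higher in Flk1-positive than untreated samples (21.7%), and 8 were higher and 31 lower over time untreated (9.55% and 8.99%). It also had 1 higher with doxycycline at day 2 (3.29%) and 6 lower in the interaction of doxycycline and day (6.14%). With the compared groups alone the counts were 28 lower with doxycycline at day 2.5, 17 higher in Flk1-positive than untreated samples and 35 lower over time untreated. With trends removed, 2 were higher with doxycycline at day 2.5 (17.5% of all genes) and 16 in Flk1-positive against untreated samples (29.4%). Over time, still with trends removed, 14 were higher both untreated (14.1%) and with doxycycline (24.0%). The interaction then had 1 higher and 4 lower (8.65% and 10.5%). With DESeq2, 0 were higher with doxycycline at day 2.5 and 4 lower in the interaction. Without the doxycycline day 2 pair, an alternative chosen after seeing the data, 30 were lower with doxycycline at day 2.5 (20.1% of all genes). There, 18 were higher in Flk1-positive than untreated samples (32.7%), and 8 were higher and 36 lower over time untreated (15.7% and 17.3%).

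Replicate numbers did not pair the samples (correlations of replicate differences from -0.03 to 0.10). With the replicate block, 0 were higher with doxycycline at day 2.5 (16.6% of all genes) and 3 lower in the interaction (5.90%). Every other count stayed within 1.5 times.

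Leaving out 1 library gave ranges, higher then lower, of 0 to 15 and 0 to 22 with doxycycline at day 2, 0 to 1 and 0 to 30 at day 2.5, 8 to 25 and 11 to 22 in Flk1-positive against other doxycycline samples, 4 to 18 and 15 to 32 against untreated samples, 1 to 8 and 2 to 36 over time untreated, 2 to 9 and 28 to 54 over time with doxycycline, and 0 to 4 and 0 to 32 in the interaction. The share of all genes called also shifted between these fits, so the ranges do not describe the members alone. With 2 libraries a group and 5 residual degrees of freedom, small changes of the tested members with the fewest counts could go undetected at this depth. Ndufb4, Atp5g2 and Atp5l had means of 0.286, 0.963 and 1.115 CPM over the 10 libraries. The larger change of Atp5l in Flk1-positive against untreated samples was called.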
